A study of Tupaia belangeri with 6 samples.

Results

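The 10 genes described here make up the core of the circadian clock: ARNTL (also called BMAL1), CLOCK, PER1, PER2, PER3, CRY1, CRY2, NR1D1, NR1D2 and DBP. They were chosen by gene name, without use of their expression, and gene-like copies marked by a "li" suffix were not counted. Of the 10 names, 8 had a row in the gene tables used here, out of 95863 gene IDs, and CRY1 and DBP had none. The data are RNA libraries of the prefrontal cortex (PFC) from 6 adult tree shrews (*Tupaia belangeri*, a small mammal close to primates), 3 females (numbered 1, 3 and 4) and 3 males (numbered 1, 4 and 5). No treatment is named in the labels, and each animal gave 1 library of polyadenylated RNA. The study's sample list gives every male a greater age than every female, so age and sex cannot be told apart. The hour of day at which the tissue was taken is not given in the sources used here, so none of the values below can be placed on a daily cycle.

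The clock is a loop of transcription and repression that runs in most cells of the body, neurons and glia of the cortex included, and takes about a day to complete. A pair of activators, ARNTL with CLOCK, switches on the PER and CRY genes, whose proteins gather, enter the nucleus and silence their own activators. In a second loop the same activators switch on the nuclear receptors NR1D1 and NR1D2 (also called REV-ERB alpha and beta), which repress ARNTL. In tissues sampled around the clock, ARNTL is therefore known to rise and fall opposite to NR1D1, DBP and the PER genes, and samples taken at different hours differ in where they stand along this cycle.

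Levels are given in TPM (an abundance of transcripts scaled for their length and for the library), a measure meant for comparing genes with each other. The tables hold no read counts and TPM does not keep the depth, so no counting interval was computed. The tables do list the mean read depth over a locus (coverage, not scaled for the library), which was lowest for CLOCK (0.225 to 0.863), PER3 (3.17 to 5.92) and PER2 (8.93 to 15.1) and highest for the PER1 locus (430 to 512). TPM summed to between 950532 and 971492 in the 6 libraries. Male 5 stood furthest from the other libraries (median correlation 0.869 across genes, against 0.901 to 0.935 for the rest) and had the greatest share of TPM in loci without a strand (7.88%, against 2.30% to 5.16%). Of 8 listed neuron markers, 6 had a row and all 6 were above 0 in every animal, whereas RBFOX3 and NRGN had no row. Of 6 listed cortical layer markers, 5 had a row, with a summed level of 280 to 473 TPM. Striatal markers (3 of 6 with a row) summed to 112 to 451 TPM, with male 1 highest, and choroid plexus markers to 1.49 to 10.3 TPM.

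ARNTL, whose loss stops the clock in mice, was present at a moderate level that varied little between animals. Its values were 40.7, 50.0 and 38.3 TPM in females 1, 3 and 4 and 44.1, 42.5 and 48.9 TPM in males 1, 4 and 5. Female 3 and male 5 were highest, female 4 was lowest, and the sexes overlapped. The mean of the females was 43.0 ± 6.16 TPM and that of the males 45.2 ± 3.35 TPM (SD, n = 3 each), with a coefficient of variation of 10.4% over the 6 animals. The ARNTL locus covers 114903 bp on the plus strand of chromosome 17 (2766846 to 2881748, genome build TS_3.0). Its last 20137 bp overlap BTBD10 on the other strand, a gene at a mean of 58.4 TPM. No strand-specific step is named in the library protocol, so reads from such an overlap cannot be assigned to either gene with certainty.

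CLOCK, the partner of ARNTL, was the weakest and most variable of the 8 genes. Its level was 4.15, 6.48 and 1.26 TPM in the females and 6.05, 5.16 and 4.56 TPM in the males. Female 4 stood alone at the bottom, 5.15 times below female 3, while the males lay within the range of the females. The mean of the females was 3.96 ± 2.62 TPM and that of the males 5.26 ± 0.754 TPM (SD, n = 3 each). Coverage of the locus was below 1 in every animal, so CLOCK rests on the thinnest data of the 8 genes. The locus spans 131339 bp on the minus strand of chromosome 20 (38809349 to 38940687) and overlaps TMEM165 over 6788 bp on the other strand (mean 31.5 TPM).

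The row named PER1, a period gene that light and neuronal activity can induce, held by far the highest level of the group. The tables list it at 1154, 1129 and 977 TPM in the females and 1189, 1130 and 1296 TPM in the males. Male 5 was highest and female 4 lowest, with overlap of the sexes (female mean 1087 ± 95.7 TPM, male mean 1205 ± 84.3 TPM, SD, n = 3 each). The row covers 35106 bp on the minus strand of chromosome 15 (29304263 to 29339368). In the RefSeq annotation of another tree shrew assembly (TupChi_1.0), the entry beside PER1 is VAMP2, a protein of synaptic vesicles that takes part in transmitter release. No row of the tables used here is named VAMP2. The row is therefore called the PER1 locus here, and what share of its signal comes from PER1 itself was not tested.

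PER2, a period gene needed for a lasting rhythm in mice, lay far below the PER1 locus. Females 1, 3 and 4 had 10.4, 13.3 and 9.49 TPM, and males 1, 4 and 5 had 10.7, 8.30 and 8.82 TPM. Female 3 was highest and male 4 lowest, and male 1 lay above females 1 and 4. Females averaged 11.1 ± 1.98 TPM and males 9.28 ± 1.28 TPM (SD, n = 3 each). PER2 lies on the plus strand of chromosome 1 (210610960 to 210656031, 45072 bp). Inside it lie 5 short unnamed loci without a strand, which reached 6.42 TPM in male 1 and 8.85 TPM in male 5 and no more than 2.69 TPM in the other animals, and 2 loci on the other strand at a mean of no more than 0.534 TPM. Whether reads of these loci belong to PER2 was not tested.

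PER3, the period gene least needed for rhythm in mice, was weaker still, and its lowest female lay above its highest male. Its level was 6.30, 7.20 and 5.92 TPM in the females and 5.39, 4.46 and 5.39 TPM in the males. Female 3 was again highest and male 4 lowest. Females averaged 6.48 ± 0.658 TPM and males 5.08 ± 0.535 TPM (SD, n = 3 each). PER3 lies on the plus strand of chromosome 12 (75762571 to 75831006, 68436 bp), and UTS2, which overlaps it over 6514 bp on the other strand, was at no more than 0.838 TPM. A short unnamed locus without a strand inside PER3 was at 4.99 TPM in male 1 and at 0 in the other animals. Whether its reads belong to PER3, whose male 1 value would then be higher, was not tested.

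CRY2, a cryptochrome that joins the PER proteins in silencing ARNTL and CLOCK, was the second highest of the 8 genes. Females 1, 3 and 4 had 122, 125 and 103 TPM, whereas males 1, 4 and 5 had 65.3, 95.7 and 83.5 TPM. Every female lay above every male, and male 1 was lowest. Females averaged 116.5 ± 11.9 TPM and males 81.5 ± 15.3 TPM (SD, n = 3 each). CRY2 lies on the plus strand of chromosome 17 (38449358 to 38486982, 37625 bp), with a single unnamed locus at a mean of 0.804 TPM on the other strand.

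CRY1, the other cryptochrome, had no row and no gene-like copy. RefSeq places it beside MTERF2, a mitochondrial transcription factor gene, and the MTERF2 row (chromosome 6, 115811840 to 115908625, plus strand, 96786 bp) was at 12.5 to 18.8 TPM. Whether that row holds reads of CRY1 was not tested.

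NR1D1, the receptor that carries the second loop, was the steadiest of the 8 genes. The values were 79.2, 85.1 and 77.7 TPM in the females and 80.0, 70.5 and 68.6 TPM in the males, a coefficient of variation of 8.06%. Males 4 and 5 were lowest and female 3 highest, and male 1 lay among the females. Females averaged 80.7 ± 3.89 TPM and males 73.0 ± 6.10 TPM (SD, n = 3 each). NR1D1 is a short gene of 9188 bp on the plus strand of chromosome 15 (66871186 to 66880373). Over 3022 bp it overlaps the thyroid hormone receptor gene THRA on the other strand, which was at 246 to 287 TPM, and how much of the NR1D1 value comes from that overlap was not tested.

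NR1D2, its sister receptor, had a similar mean level but spread far more. Its level was 74.6, 83.8 and 40.0 TPM in the females and 51.1, 52.2 and 79.9 TPM in the males. Both sexes held high and low animals: females 1 and 3 and male 5 were high, and female 4, male 1 and male 4 were low. Females averaged 66.1 ± 23.1 TPM and males 61.1 ± 16.3 TPM (SD, n = 3 each), with a coefficient of variation of 28.5%. NR1D2 lies on the minus strand of chromosome 28 (18955840 to 19002680, 46841 bp). It has 2 gene-like copies, both listed at 0 TPM in every animal.

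DBP, an output gene of the loop that is known for one of the widest daily swings of any mammalian gene, had no row. In human and mouse it lies between SPHK2 and CA11. In the tree shrew tables the rows of CA11 (chromosome 27, 24405628 to 24430447) and SPHK2 (24428344 to 24437040) overlap each other by 2104 bp, with no DBP row between them. CA11, a brain protein of the carbonic anhydrase family, was at 301 to 587 TPM and SPHK2, a sphingosine kinase, at 15.8 to 45.7 TPM, and any part of DBP in these values was not tested.

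**Figure D1:**
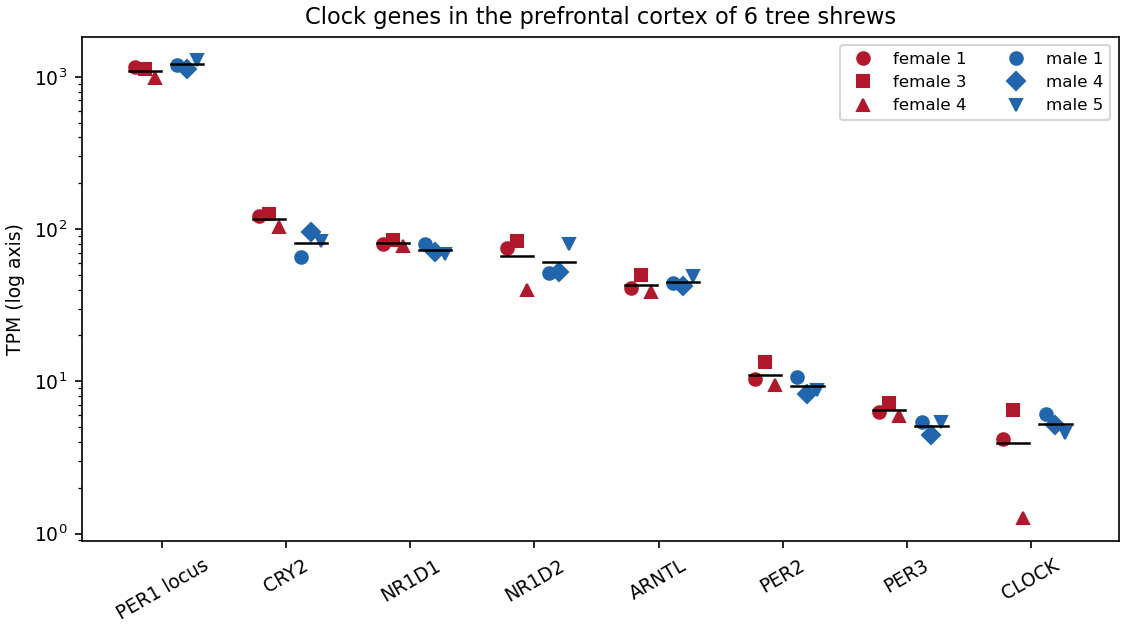
Level of the 8 clock genes with a row in each of the 6 animals, in TPM on a log axis, with females in red, males in blue and the mean of each sex as a black line. The PER1 locus stands apart at 977 to 1296 TPM, CRY2, NR1D1, NR1D2 and ARNTL lie between 38.3 and 125 TPM, and PER2, PER3 and CLOCK lie between 1.26 and 13.3 TPM.

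Ordered by their mean log2(TPM + 1), the genes fell into the PER1 locus (10.16), CRY2 (6.61), NR1D1 (6.28), NR1D2 (5.96), ARNTL (5.49), PER2 (3.47), PER3 (2.75) and CLOCK (2.39). The PER1 locus exceeded 99.7% of expressed genes, CRY2 93.8% and CLOCK 61.7%. In 4 of the 7 neighbouring pairs the upper gene was higher in 6 of 6 animals: the PER1 locus over CRY2, NR1D2 over ARNTL, ARNTL over PER2, and PER2 over PER3. Each of these 4 gave an exact sign-flip permutation p of 0.0313, the smallest that 6 animals allow (two-sided, adjusted p = 0.0547 over the 7 pairs). The order, and with it the choice of pairs, came from the same values. These p-values therefore do not test an order set beforehand. PER2 lay above PER3 by 0.72 ± 0.11 on the log2 scale (SD, n = 6), and ARNTL above PER2 by 2.02 ± 0.21.

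The remaining neighbours were not separated by their spread in TPM. CRY2 was above NR1D1 in 5 of 6 animals (exact permutation test, p = 0.0938, adjusted p = 0.131), with male 1 the exception. NR1D1 was above NR1D2 in 5 of 6 (exact permutation test, p = 0.156, adjusted p = 0.182), with male 5 the exception. PER3 was above CLOCK in 4 of 6 (exact permutation test, p = 0.250), the exceptions being males 1 and 4. By coverage, the other measure of the tables, PER3 was above CLOCK and CRY2 above NR1D1 in 6 of 6 animals, and NR1D1 above NR1D2 in 5 of 6. The size of the gaps differed between TPM and coverage. In female 1 the PER1 locus and CRY2 were at 1154 and 122 TPM but at 480 and 170 in coverage. PER3 and CLOCK in that animal were at 6.30 and 4.15 TPM but at 4.92 and 0.689 in coverage. Distances between genes therefore depend on the measure.

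The comparison of the sexes asks which genes differ between the female and the male PFC. Females were higher in CRY2, PER3, PER2, NR1D1 and NR1D2, and males in CLOCK, the PER1 locus and ARNTL, but none of the 8 passed the threshold of 0.1 on the adjusted p-value by limma with Benjamini-Hochberg adjustment over all autosomal genes. That threshold was met by 4 of 27996 autosomal genes (0.0143%). At an unadjusted limma p under 0.05 there was 1 of the 8 genes, CRY2, where 5.04% of all autosomal genes passed. CRY2 and PER3 were the 2 genes with every female above every male, a pattern that 4.84% of all autosomal genes showed. The median female minus male difference of the 8 genes was 0.11 on the log2(TPM + 1) scale, against −0.03 for all autosomal genes tested.

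CRY2 had the clearest difference of the group, 0.52 on the log2(TPM + 1) scale (SE 0.191, 95% interval 0.09 to 0.96, adjusted p = 0.925 by limma). The unadjusted limma p rose from 0.0243 to 0.0770 without male 1, the animal lowest in CRY2, with a difference of 0.37. This p was also above 0.05 without female 1 (0.0828) or female 3 (0.0737). For PER3 the difference was 0.30 (SE 0.336, 95% interval −0.47 to 1.06, adjusted p = 0.940 by limma), so the 3 animals of each sex were separated by a gap that is small on this scale. PER2 differed by 0.22 (95% interval −0.40 to 0.85), and by 0.10 without female 3, and NR1D1 by 0.14 (−0.21 to 0.50).

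ARNTL differed by −0.08 (95% interval −0.48 to 0.33, adjusted p = 0.975 by limma), so that a change of 1 unit, a doubling, in either direction lies outside the interval. For the PER1 locus the difference was −0.15 (95% interval −0.69 to 0.39), and −0.08 without female 4. NR1D2 gave 0.08 (95% interval −0.62 to 0.77), and its sign turned when any of 4 animals was left out. CLOCK gave −0.49 with the widest interval (−1.68 to 0.70, adjusted p = 0.939 by limma), and its difference was −0.0051 without female 4 and −0.87 without female 3.

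Marker lists of other cells were set beside these differences. Of the marker genes, the hemoglobin genes HBQ1 and HBG passed the adjusted threshold, and no marker of oligodendrocytes, precursors or endothelium did. The blood list, with 5 of 5 genes in the tables, summed to 1288 to 2553 TPM in the females and 68.9 to 112 TPM in the males, nearly all of it HBQ1 and HBG. The 3 oligodendrocyte markers with a row (of 6 listed, with MOBP and CNP among those without one) summed to 348 to 482 TPM in the females and 80.7 to 236 TPM in the males. MAG carried most of that sum, while MOG and MBP overlapped between the sexes. Precursor markers (3 of 4 with a row) summed to 180 to 228 TPM in the females and 92.7 to 154 TPM in the males, with PDGFRA overlapping. The summed neuron, astrocyte, microglia and endothelium markers overlapped between the sexes, although the single endothelium markers CLDN5 and FLT1 did not.

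The mean log level of the 3 blood markers above 0 in every animal (HBQ1, HBG and AHSP) ran with CRY2 over the 6 animals (Pearson r = 0.86, exact permutation p = 0.0208, and Spearman rho = 0.89, exact permutation p = 0.0333, adjusted p of r = 0.353 over 104 relations). That r was 0.76 without the 2 animals farthest from the median and 0.49 after the mean of each sex was removed. With PER3 the blood markers gave an r of 0.84 (exact permutation p = 0.0306, adjusted p = 0.353) and a rho of 0.77 (exact permutation p = 0.103), with 0.88 and 0.31 in these checks. The part of blood or of oligodendrocytes in the CRY2 and PER3 differences was not tested, and in such bulk tissue fewer cells of a type and less RNA per cell cannot be told apart.

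**Figure D2:**
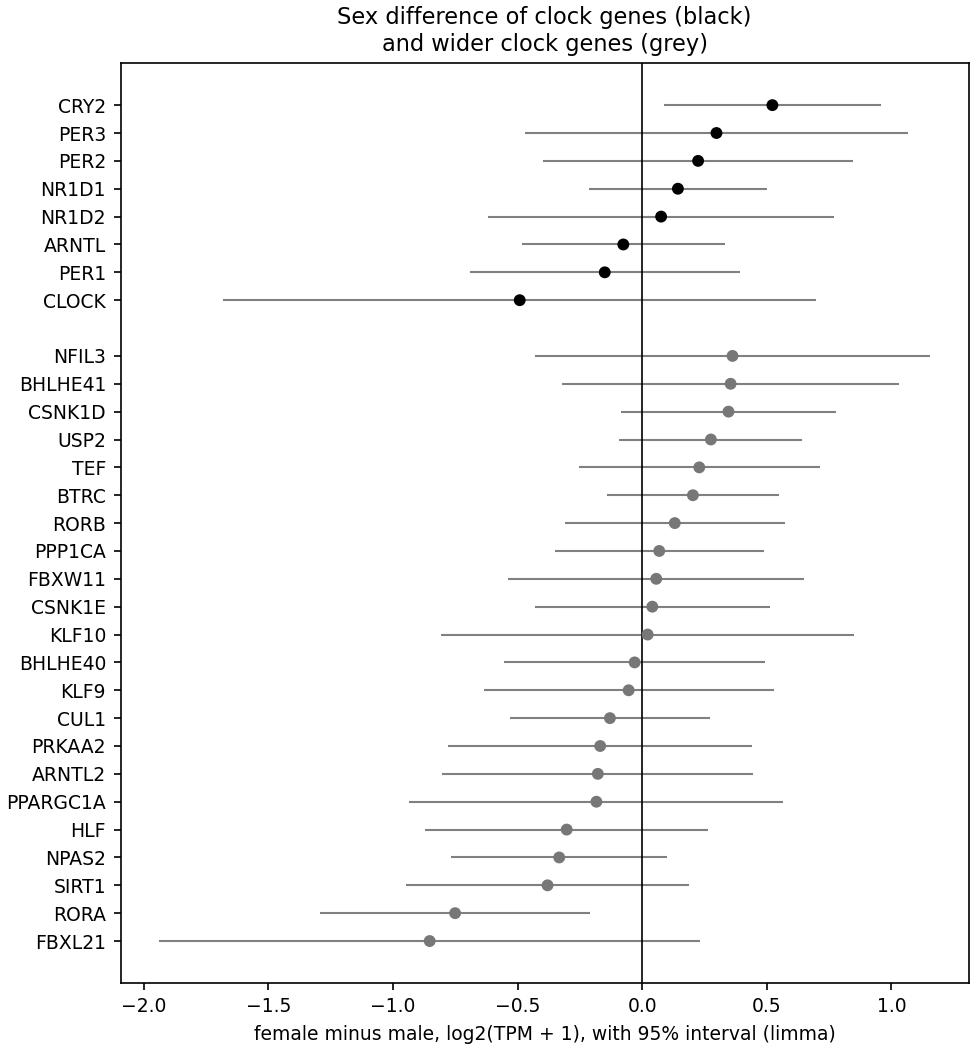
Female minus male difference of log2(TPM + 1) for the 8 clock genes (black) and 22 genes of the wider clock (grey), with 95% intervals from limma. The interval lies clear of 0 for CRY2 (0.09 to 0.96) and, on the male side, for RORA (−1.29 to −0.21), and crosses 0 for the other genes drawn.

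Whether the clock genes rose and fell together from animal to animal was examined over all 28 pairs of the 8 genes. The closest pair was PER2 and NR1D1, the repressors of the first and the second loop, and PER3 joined them. PER2 and NR1D1 were both highest in female 3 (13.3 and 85.1 TPM) and lowest in males 4 and 5, with females 1 and 4 and male 1 between. Their Pearson r was 0.92 (exact permutation p = 0.00556, adjusted p = 0.156) and their Spearman rho 0.94 (exact permutation p = 0.0167, adjusted p = 0.467). The r was 0.88 after the mean of each sex was removed (permutation p = 0.0514). That p is not exact, since centred values are not exchangeable between the sexes. With the values not centred, the r was 0.90 without the 2 animals farthest from the median, and 0.89 to 0.96 with each animal left out. Median-ratio scaling of the libraries brought it to 0.79 (exact permutation p = 0.0736).

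For PER2 with PER3, Pearson r was 0.86 (exact permutation p = 0.0292, adjusted p = 0.408) and Spearman rho 0.83 (exact permutation p = 0.0583). It stood at 0.27 without the 2 animals farthest from the median of PER2 and at 0.70 without female 3, so this relation rests on few animals, while within the sexes it was 0.85. PER3 with NR1D1 gave an r of 0.79 (exact permutation p = 0.0514, adjusted p = 0.447) and a rho of 0.77 (exact permutation p = 0.103), with 0.48 without the 2 farthest animals and 0.57 within the sexes.

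Among all 28 pairs, 2 reached an r of 0.8 or more, which is 7.14% of them, against 6.73% of all pairs among 7614 named genes with a mean of at least 5 TPM. That share is near the background. An r above 0 was seen in 21 pairs (75.0%, against 55.8% of all pairs), with a median r of 0.36 against 0.09. The 28 pairs share genes and the same 6 animals, so they are not independent. CLOCK, at a mean of 4.61 TPM, also lies below the 5 TPM asked of the background genes. Whether the excess exceeds that of other gene sets was not tested. No pair passed 0.05 after adjustment, and the smallest adjusted p was 0.156. Each test used all 720 pairings of the 6 animals.

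A second cluster held the activators. ARNTL and CLOCK had an r of 0.73 (exact permutation p = 0.0639, adjusted p = 0.447) and a rho of 0.83 (exact permutation p = 0.0583), with 0.95 without the 2 farthest animals and 0.70 within the sexes. ARNTL and NR1D2 had an r of 0.75 (exact permutation p = 0.106, adjusted p = 0.511) and a rho of 0.77 (exact permutation p = 0.103), with 0.29 without the 2 farthest animals and 0.82 within the sexes. Female 4, low in ARNTL, CLOCK, NR1D2 and the PER1 locus together, carried much of this cluster. The r of CLOCK with the PER1 locus, 0.72 in all animals (exact permutation p = 0.172, with a rho of 0.14, exact permutation p = 0.803), was −0.37 without female 4. CLOCK with NR1D2 had an r of 0.62 (exact permutation p = 0.160) and a rho of 0.49 (exact permutation p = 0.356). That r was −0.87 without the 2 farthest animals, 0.73 within the sexes and −0.21 without female 4. The PER1 locus with NR1D2 had an r of 0.68 (exact permutation p = 0.128) and a rho of 0.26 (exact permutation p = 0.658). In these checks its r was −0.45, 0.94 and 0.24. ARNTL and NR1D2 rose to 0.98 without female 1 or fell to 0.56 without female 4.

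For ARNTL with NR1D1, PER2 and PER3, pairs known to oppose each other over a day, the sign of r depended on which animals were included. ARNTL with NR1D1, its repressor, gave an r of 0.00 (exact permutation p = 0.993) and a rho of 0.26 (exact permutation p = 0.658), with −0.11 without the 2 farthest animals, 0.27 within the sexes, and −0.62 to 0.54 with each animal left out, lowest without female 3. With PER2, ARNTL gave an r of 0.39 (exact permutation p = 0.453) and a rho of 0.37 (exact permutation p = 0.497), with 0.14, 0.69 and −0.25 to 0.74 in the same checks, again lowest without female 3. With PER3, ARNTL gave an r of 0.23 (exact permutation p = 0.660) and a rho of 0.09 (exact permutation p = 0.919), with −0.54, 0.84 and −0.36 to 0.39. With the PER1 locus the r of ARNTL stayed above 0, at 0.70 (exact permutation p = 0.122, adjusted p = 0.511) with a rho of 0.37 (exact permutation p = 0.497), and at 0.89, 0.69 and 0.38 to 0.93 in these checks. NR1D1 and NR1D2, which follow each other through the day in other tissues, had an r of 0.08 (exact permutation p = 0.860) and a rho of 0.14 (exact permutation p = 0.803), with 0.75, 0.01 and −0.36 to 0.54 in these checks. With 6 animals such values leave wide room for either sign.

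**Figure D3:**
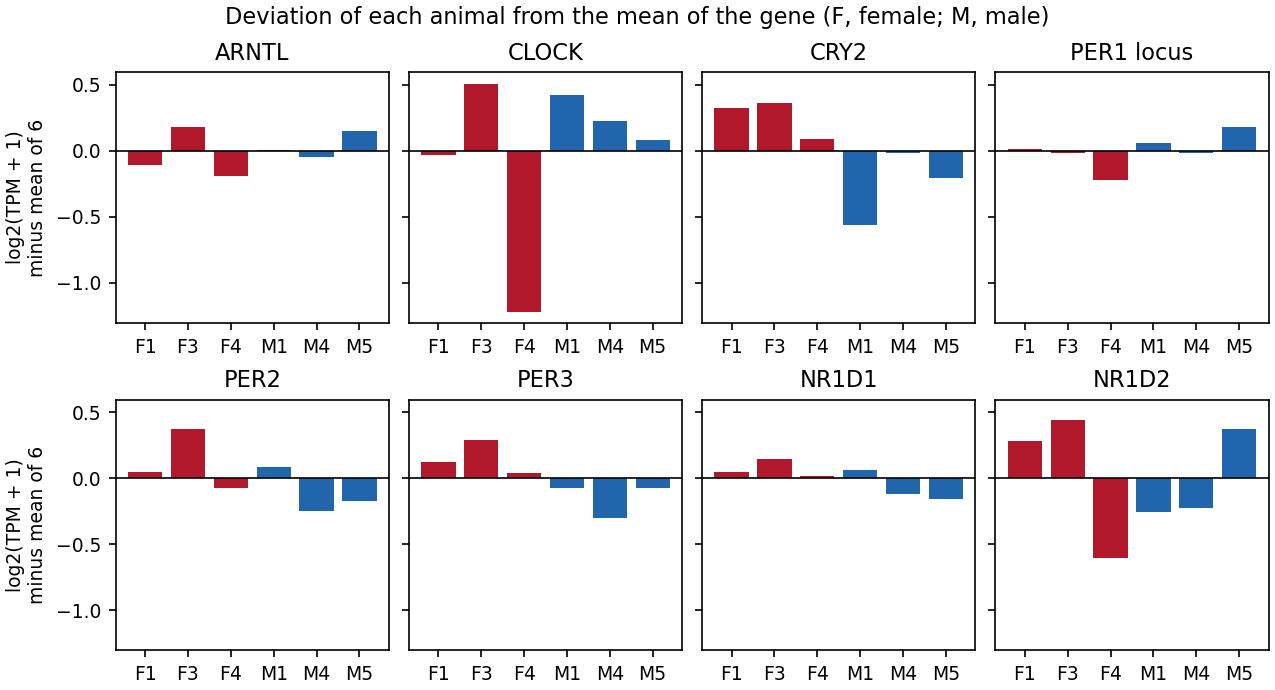
Deviation of each animal (F, female, red; M, male, blue) from the mean of the gene over 6 animals, in log2(TPM + 1), with 1 panel per gene. Female 3 is above the mean in PER2, PER3, NR1D1, ARNTL, CLOCK, CRY2 and NR1D2, and female 4 lies 1.22 below the mean in CLOCK and 0.61 below it in NR1D2.

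A single number per animal was formed from the loop: the mean deviation of NR1D1, NR1D2, the PER1 locus, PER2 and PER3 minus that of ARNTL and CLOCK, without DBP, which had no row. Female 1 had a contrast of 0.17, female 3 of −0.10 and female 4 of 0.54, and male 1 had −0.24, male 4 −0.27 and male 5 −0.09. Female 4 stood apart and the sexes touched, female 3 lying between males 1 and 5. Without the PER1 locus the values for the females were 0.19, −0.03 and 0.55 and for the males −0.26, −0.32 and −0.12, so that every female lay above every male, which was a choice made after the data were seen. The high value of female 4 came with its deviation of −1.22 in CLOCK, the gene with the thinnest coverage, since its deviation in ARNTL was −0.19 and that of the 5 repressors together −0.17. The range over all animals was 0.81, and 0.44 without female 4.

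The place of the clock genes among all named genes is given as a description, since PER2 and NR1D1 were taken as references after they were seen to be the closest of the 28 pairs. Of 7613 other genes, 0.906% had a higher r with NR1D1 than PER2 did, and 4.32% had a higher r than PER3, while the other members lay further down, from 27.8% for CRY2 to 85.9% for the PER1 locus. Seen from PER2, 0.696% of genes were more like it than NR1D1 was, and 2.23% more like it than PER3. An r of 0.8 or more was reached with NR1D1 by 313 genes (4.11%) and with PER2 by 353 genes (4.64%). Relative to ARNTL, 17.0% of genes were more like it than NR1D2, 19.8% more like it than CLOCK, and 60.9% more like it than NR1D1.

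The genes with the highest r with ARNTL over the 6 animals were PYGO1 (0.99), ATL2 (0.99), CDH6 (0.99), ZC3H12C (0.99) and HOOK1 (0.99), and those with the lowest r were NFKBIB (−0.99), MAP3K6 (−0.99) and FXYD1 (−0.96). NR1D1 and PER2 stood in as references for DBP, a choice made after the data were seen. With NR1D1 the highest r was found for APOD (0.99), ZCCHC12 (0.99), FOLH1 (0.99), HTR2C (0.98) and RHBDL2 (0.98), and the lowest for SLC22A2 (−0.99), SPRN (−0.97) and RNASE4 (−0.96). With PER2 the highest r was found for MEIS2 (0.997), PCBP3 (0.99), CCDC82 (0.99), DDX47 (0.98) and COL24A1 (0.98), and the lowest for MACROD1 (−0.99), CUSTOS (−0.96) and KIAA1755 (−0.96). Values this near to 1 are the extremes of 7613 genes over 6 points.

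The wider clock was described from a list of 31 genes, of which 25 had a row and 22 passed the filter of at least 0.1 TPM in 3 or more animals. CIART, GSK3B, NAMPT and WEE1 had no row, and SKP1 was listed at 0 in every animal. TIMELESS, named after the partner of period in flies, was at 0 to 0.256 TPM. None of the 22 genes passed the adjusted limma threshold for sex, 11 were higher in each sex, and their median difference was −0.0041. In 5 of the 22 the sexes did not overlap, in one direction or the other, where 9.81% of all autosomal genes did not, and these 5 (RORA, FBXL21, SIRT1, BTRC and USP2) were named after their values were seen. RORA, FBXL21 and SIRT1 were higher in the males and BTRC and USP2 in the females.

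RORA, the receptor that competes with NR1D1 and activates ARNTL, was the 1 gene of the 22 with an unadjusted limma p (0.0122) under 0.05, a share near the 5.04% of all autosomal genes. RORA values were 20.8, 19.9 and 16.1 TPM in the females and 31.4, 25.6 and 42.1 TPM in the males. Every male lay above every female, male 5 furthest (difference −0.75, SE 0.237, adjusted p = 0.925 by limma). Its relative RORB, also a marker of the middle cortical layer, was at 21.6 to 28.7 TPM with overlapping sexes (difference 0.13, 95% interval −0.31 to 0.57).

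NPAS2, which can take the place of CLOCK as partner of ARNTL and is known from the forebrain, was far more abundant than CLOCK in every animal. It was measured at 74.0, 79.4 and 70.7 TPM in the females and 74.3, 104 and 109 TPM in the males, while CLOCK did not exceed 6.48 TPM. Males 4 and 5 were high and male 1 lay among the females (difference −0.33, 95% interval −0.77 to 0.10). Against NR1D1, NPAS2 had an r of −0.84 (exact permutation p = 0.0611) and a rho of −0.43 (exact permutation p = 0.419). The r was −0.70 within the sexes and −0.97 to −0.70 with each animal left out. It turned to 0.98 without the 2 animals farthest from the median, males 4 and 5, so the inverse relation rests on those 2 animals. ARNTL2, a paralog of ARNTL, was at 11.5 to 19.5 TPM.

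The output factors related to DBP were well expressed: TEF at 66.3 to 106 TPM and HLF at 64.7 to 125 TPM. NFIL3, which binds the same sites and represses, was at 6.04 to 15.6 TPM, with male 5 lowest. The kinases that mark PER proteins for decay, CSNK1D and CSNK1E, were at 61.4 to 95.6 TPM and 61.3 to 98.7 TPM. BHLHE40, a repressor that ARNTL and CLOCK switch on, was at 32.3 to 50.7 TPM.

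BHLHE41, its sister repressor, followed PER2. The tables give it 25.4, 33.5 and 16.0 TPM in the females and 21.9, 14.8 and 19.6 TPM in the males. Female 3 was highest and male 4 lowest, as for PER2 and PER3. With PER2 it had an r of 0.92 (exact permutation p = 0.0139, adjusted p = 0.321 over 168 relations) and a rho of 0.89 (exact permutation p = 0.0333), with 0.61 without the 2 animals farthest from the median and 0.89 within the sexes. Of all named genes 0.775% were more like PER2 than BHLHE41 was.

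Over the 168 relations of the 8 core genes with 21 genes of the wider list, 16 had an exact permutation p under 0.05 and none passed after adjustment (smallest adjusted p = 0.233). Over the relations of the 8 genes with all named genes, 8.89% had such a p, so the share in the wider list is near the background. The smallest p belonged to FBXW11, part of the ligase that removes PER proteins, with NR1D2, and to CSNK1D with the PER1 locus, the first of which was singled out after its values were seen. FBXW11 and NR1D2 had an r of 0.97 (exact permutation p = 0.00139) and a rho of 1 (exact permutation p = 0.00278), with 0.98 without the 2 farthest animals and 0.96 within the sexes. CSNK1D ran opposite to the PER1 locus, with an r of −0.83 (exact permutation p = 0.00278), a rho of −0.94 (exact permutation p = 0.0167), −0.95 without the 2 farthest animals and −0.71 within the sexes. RORA ran with the PER1 locus, with an r of 0.90 (exact permutation p = 0.0153), a rho of 0.94 (exact permutation p = 0.0167), 0.70 without the 2 farthest animals and 0.91 within the sexes. SIRT1 did so more closely, with an r of 0.98 (exact permutation p = 0.00694) and a rho of 0.94 (exact permutation p = 0.0167). Its r was 0.54 without the 2 farthest animals and 0.98 within the sexes.

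**Figure D4:**
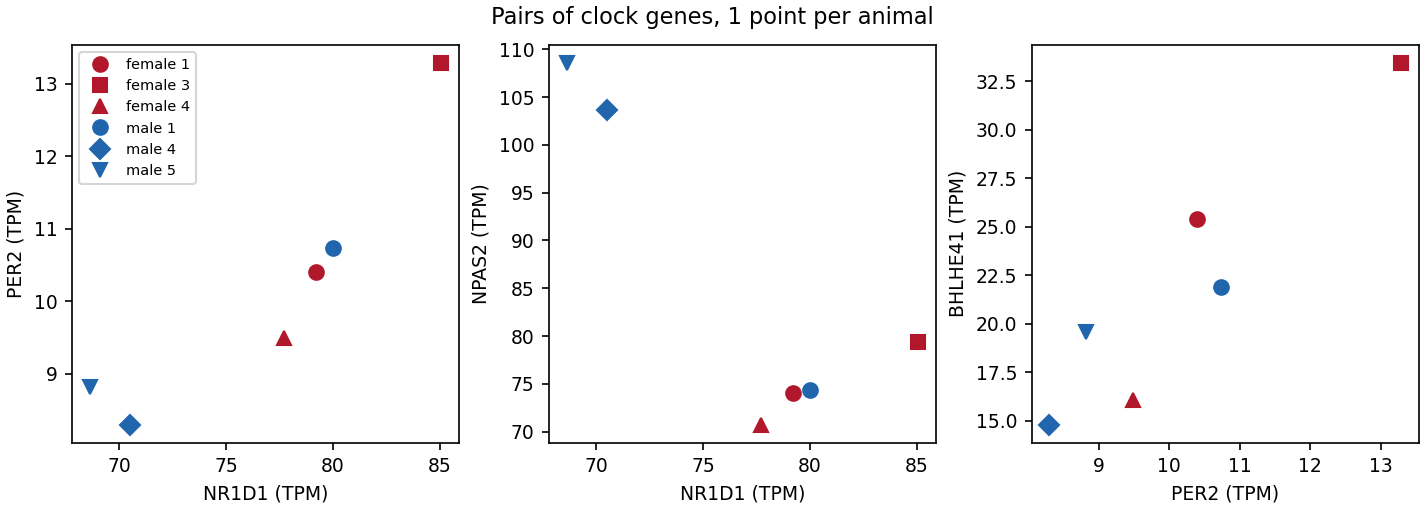
Levels in TPM of NR1D1 and PER2 (left), NR1D1 and NPAS2 (middle) and PER2 and BHLHE41 (right), with 1 point per animal, females in red and males in blue. PER2 rises with NR1D1 (r = 0.92), with males 4 and 5 at the low end and female 3 at the high end, whereas the fall of NPAS2 with NR1D1 is made by males 4 and 5, at 104 and 109 TPM.

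**Figure D5:**
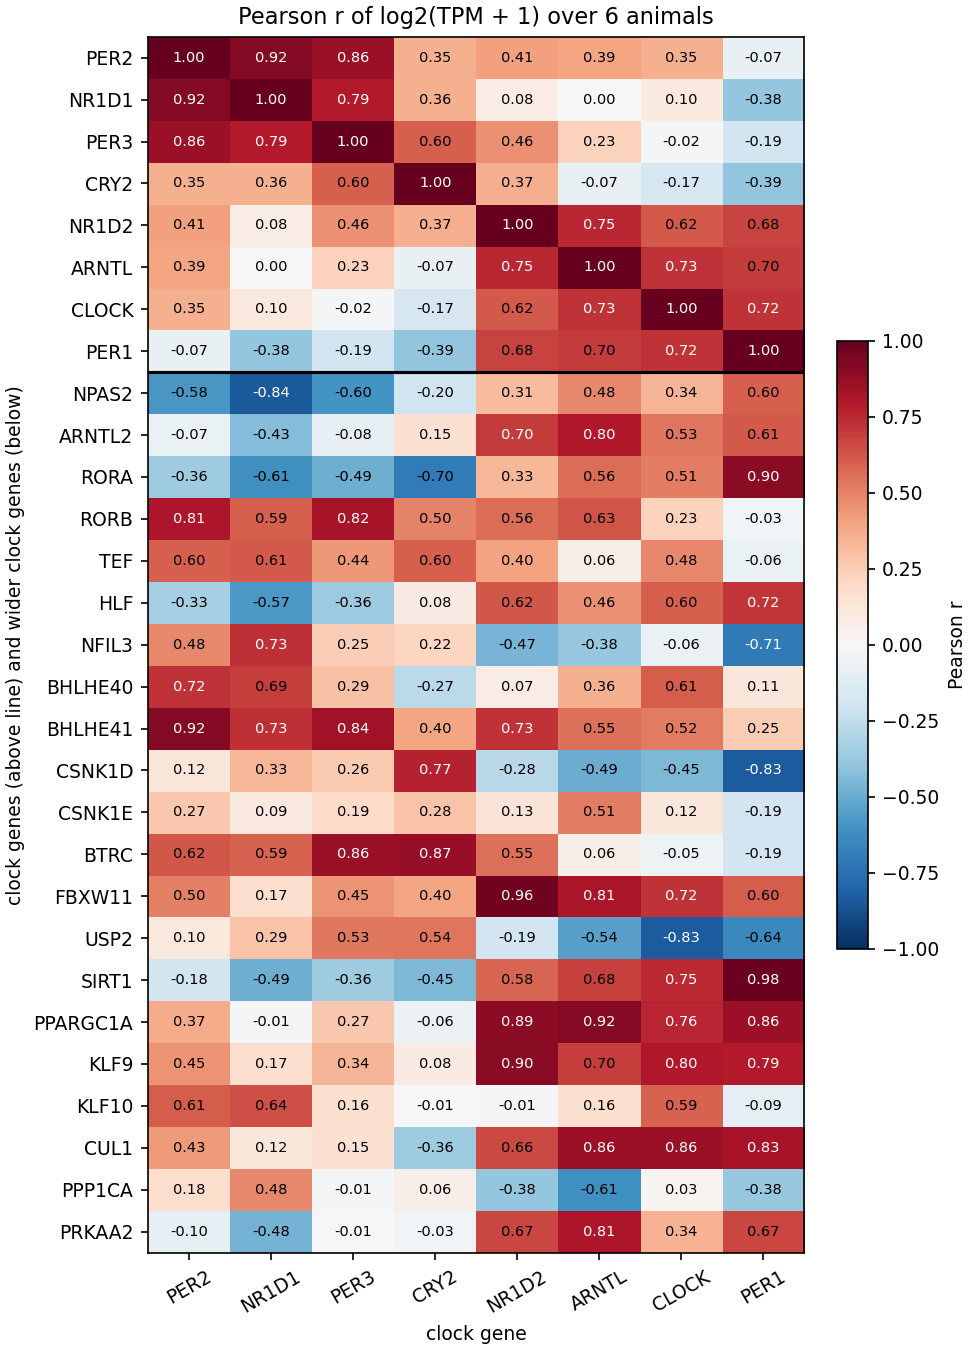
Pearson r of log2(TPM + 1) over 6 animals between the 8 clock genes (columns) and the same genes (above the line) and 21 genes of the wider clock (below the line). PER2, NR1D1 and PER3 form a block with r of 0.79 to 0.92, and ARNTL, CLOCK, NR1D2 and the PER1 locus one with r of 0.62 to 0.75. Without female 4 the second block broke up: r was −0.37 for CLOCK with the PER1 locus and −0.21 for CLOCK with NR1D2. Its other pairs then lay between 0.24 and 0.56.

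The clock genes were also set beside gene lists that respond to the state of the animal or mark cell types, in 104 relations of a gene with the mean log level of a list. None passed after adjustment, and the smallest adjusted p was 0.145. It belonged to NR1D2 with the mean log level of the neuron markers, which ran in the same order in all 6 animals (r = 0.94, exact permutation p = 0.00139, rho = 1, exact permutation p = 0.00278). This r was 0.83 without the 2 farthest animals and 0.95 within the sexes. The summed level of these markers, 6290 to 8275 TPM, did not follow NR1D2: it was second highest in male 1, where NR1D2 was second lowest. GAD2, from 8.61 to 87.4 TPM, varied most among them. Neuron markers also ran with ARNTL (r = 0.82, exact permutation p = 0.0486, adjusted p = 0.460, rho = 0.77, exact permutation p = 0.103). That r was 0.43 without the 2 farthest animals and 0.85 within the sexes. Choroid plexus markers ran with the PER1 locus (r = 0.83, exact permutation p = 0.0278, adjusted p = 0.353, rho = 0.71, exact permutation p = 0.136), with 0.95 and 0.83 in these checks. The part of these cells in the spread of NR1D2, ARNTL and the PER1 locus was not tested.

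NR1D1 and PER2 ran with the cortical layer markers, a list that holds RORB. For NR1D1 the r was 0.91 (exact permutation p = 0.00972, adjusted p = 0.353) and the rho 0.94 (exact permutation p = 0.0167), with 0.82 without the 2 farthest animals and 0.83 within the sexes. For PER2 the r was 0.88 (exact permutation p = 0.0347, adjusted p = 0.361) and the rho 0.89 (exact permutation p = 0.0333), with 0.82 in both checks. With the oligodendrocyte markers NR1D1 had an r of 0.90 (exact permutation p = 0.0208) and a rho of 0.71 (exact permutation p = 0.136), with 0.02 without the 2 farthest animals and 0.80 within the sexes. The part of these markers in the likeness of PER2 and NR1D1 was not tested.

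Immediate early genes, which neurons switch on within minutes of activity and which can share triggers with the PER genes, varied widely. The 8 genes with a row (of 10 listed, with EGR2 and NR4A1 absent) summed to 598, 537 and 246 TPM in the females and 375, 332 and 162 TPM in the males. NR1D1 ran with them at an r of 0.75 (exact permutation p = 0.0792, adjusted p = 0.616) and a rho of 0.77 (exact permutation p = 0.103), with 0.60 without the 2 farthest animals and 0.64 within the sexes. For PER2 the r was 0.68 (exact permutation p = 0.128) and the rho 0.66 (exact permutation p = 0.175), with 0.79 and 0.57 in these checks. The PER1 locus had an r of −0.11 (exact permutation p = 0.882) and a rho of −0.14 (exact permutation p = 0.803), with 0.71 and 0.29.

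Glucocorticoid-induced genes, a readout of stress hormone that itself follows the day, had 6 of 8 genes with a row and summed to 160 to 301 TPM, with female 4 lowest. The PER1 locus ran with them at an r of 0.90 (exact permutation p = 0.0222, adjusted p = 0.353) and a rho of 0.71 (exact permutation p = 0.136), but at 0.28 without the 2 farthest animals, and within the sexes at 0.94. NR1D2 did so at an r of 0.83 (exact permutation p = 0.0222, adjusted p = 0.353) and a rho of 0.77 (exact permutation p = 0.103), with 0.63 and 0.92. Of 7 temperature-responsive genes, 5 had a row, but RBM3 and HSPA8 were at 0 in some animals and HSP90AA1 was listed at 0 throughout. The list summed to 252 to 392 TPM, and its mean log level rests on the remaining genes, HSPH1 and DNAJB1, which leaned to opposite sexes (−0.46 and 0.67). NR1D1 ran with that mean of 2 genes at an r of 0.87 (exact permutation p = 0.0306, adjusted p = 0.353) and a rho of 0.94 (exact permutation p = 0.0167), with 0.96 in both checks.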

How the data were processed

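The deposited gene tables hold the TPM, FPKM and coverage that the authors obtained with StringTie 2.2.1, per animal, after HISAT2 2.2.1 mapping to genome TS_3.0 (study's methods and processing notes). The deposited coverage is a mean depth (signal) not scaled for the library. FPKM was not used, since the deposited FPKM is a multiple of TPM within a library. The authors tested counts with DESeq2, and the tables hold none, so limma replaced it here. Read counts per library were not analysed here.

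Rows of 1 gene ID were summed (Python 3.11.15, numpy 2.4.6, pandas 2.3.3, scipy 1.17.1, matplotlib 3.10.9). A gene entered the tests if 3 animals or more had 0.1 TPM or above, and log2(TPM + 1) was fitted by limma 3.58.1 (R 4.3.3, mean-variance trend), with Benjamini-Hochberg adjustment over autosomes and a threshold of 0.1. This scale understates changes of weak genes. The script was tested on simulated data. The labels name 6 separate animals, so p-values measure the spread between animals. Pairs of genes were tested by exact permutation over all pairings of the animals.

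The members were set by gene name, without use of their expression. They, the lists and the tests were chosen with earlier results of these data known. All members were named. Of the wider list, NPAS2, ARNTL2, RORA, RORB, TEF, HLF, NFIL3, BHLHE40, BHLHE41, CIART, TIMELESS, CSNK1D and CSNK1E were always named, and others where the unadjusted limma p was under 0.05. FBXW11, FBXL21, SIRT1, BTRC, USP2 and the genes listed as absent were named outside that rule, after their values were seen. For likeness, the 5 genes of highest and the 3 of lowest r were named. Lists covered the wider clock, immediate early, glucocorticoid-induced and temperature-responsive genes, and markers of neurons, astrocytes, oligodendrocytes, precursors, microglia, endothelium, choroid plexus, blood, cortex layers and striatum. RefSeq names came from TupChi_1.0, and none of its coordinates was used. As alternatives, the pseudocount was set to 0.1 or 0.01, the filter dropped or raised to 1 TPM, and the libraries scaled by median ratios or quantiles. Further alternatives were loci with a strand alone, rows kept apart, no trend, the animal number as a block, sex-centred values, Spearman rho and each animal left out. Added after the data were seen were the omission of the PER1 locus, and NR1D1 and PER2 as likeness references. Some genes of the lists are not reported here.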

Additional observations from a re-analysis of the deposited data

How the results depend on the processing

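In all 16 alternatives, 0 of the 8 clock genes passed the adjusted threshold of the sex comparison, and CRY2, PER3, PER2, NR1D1, CLOCK and the PER1 locus kept their direction. NR1D2 (0.08 in the comparison as reported) turned to −0.04 without female 1, −0.13 without female 3, −0.04 without male 1 and −0.02 without male 4, and ranged from −0.13 to 0.40 with each animal left out. ARNTL turned to 0.0012 without female 4 (range −0.19 to 0.0012). The adjusted p of CRY2 ranged from 0.427 to 1, and its unadjusted limma p was under 0.05 in 11 of the 16. Of all autosomal genes, 4 were called, 0 without the trend (602 and 859 genes then had an unadjusted limma p under 0.05 in favour of females and males) and 2 to 5 with each animal left out. No pairing of the sexes by animal number was seen: deviations of same-numbered animals correlated at 0.001 for number 1 and 0.038 for number 4. Whether same-numbered animals shared a batch was not tested. With the number as a replicate block, 2 autosomal genes and 0 clock genes were called, and the sex difference moved from 0.22 to 0.07 for PER2, from 0.14 to 0.06 for NR1D1 and from −0.49 to −0.95 for CLOCK. Quantile normalization moved it to 0.06 for NR1D1, −0.24 for CLOCK, 0.47 for PER3 and −0.26 for the PER1 locus. With each animal left out, it ranged from 0.10 to 0.32 for PER2, −0.87 to −0.0051 for CLOCK and −0.20 to −0.08 for the PER1 locus. The number of gene pairs with a permutation p under 0.05 was 2, and 1 by Spearman rho. It was 0 (without male 4) to 3 (without male 1) with each animal left out. After the mean of each sex was removed it was 5, but the p of such centred values is not exact. The range of the loop contrast was 0.81, and 0.44 to 0.81 with each animal left out, the lowest without female 4. For these the cause was not tested. No read counts are listed, so counting error could not be given, and CLOCK had the lowest coverage (0.225 to 0.863).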
